A study of Mus musculus with 6 samples.

Results

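The SOX family of transcription factors was followed in mouse mammary epithelial cells and in mammary tumor cell lines that lack the JNK kinases. The genes described are Sox2, Sox4, Sox5, Sox6, Sox7, Sox9, Sox10, Sox11, Sox13 and Sox15, which were taken by symbol from the gene expression table, 10 of 37753 entries with a value. RNA-seq was performed on 6 libraries, 3 in each group, all of strain C57/Bl6J. The control group (MEC) holds 3 preparations of primary mammary epithelial cells with the genotype WAPCre+, which carry the Cre transgene but have intact Mapk8 and Mapk9, the genes of JNK1 and JNK2. Each preparation pooled cells from 3 to 5 virgin females between 10 and 12 weeks of age, grown on collagen I until nearly confluent. The other group (MEKO) holds 3 cell lines, numbered 199, 233 and 336, with the genotype Mapk8KO Mapk9KO Cre+, each derived from 1 mammary tumor and moved from collagen I to uncoated plastic after 2 passages. The mice with these numbers carried an adenosquamous carcinoma (199), a tumor with features of both types (233) and an adenocarcinoma (336), so each line may stand for a different tumor type, with 1 line of each. The Wap promoter drives Cre in luminal cells during pregnancy and lactation, so the tumors came from parous animals and the MEC from virgin animals. Genotype, tumor origin, reproductive history, culture time and culture conditions differ together between the groups and cannot be told apart.

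SOX proteins bind DNA through a high mobility group (HMG) box, which fits into the minor groove and bends the helix. They are sorted into subgroups by the similarity of this box, and members of a subgroup often act in the same tissues. SOX2 is SOXB, SOX4 and SOX11 are SOXC, SOX5, SOX6 and SOX13 are SOXD, SOX9 and SOX10 are SOXE, SOX7 is SOXF, and SOX15 is SOXG. In the mammary gland, SOX9 and SOX10 mark stem and progenitor cells of the epithelium, and SOX10 is also present in the basal, myoepithelial layer.

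The coding sequence of the HMG box shows how close the subgroup partners are, which matters for assigning reads to 1 gene. Within a window of 79 codons, the 5 pairs of genes from the same subgroup shared between 80.6% and 88.6% of bases (median 84.0%), and the 40 pairs from different subgroups shared between 54.4% and 73.4% (median 63.5%). The SOXE pair shared 199 bases of the window and the SOXC pair shared 210. The longest identical stretch anywhere in the coding sequence was 44 bases for Sox9 and Sox10 and 48 bases for Sox4 and Sox11. By the study's methods, these libraries had paired-end reads that were longer than either stretch before trimming. The window of Sox9 lies on the plus strand in 2 exons, at chr11:112782885-112783015 and chr11:112783809-112783914. The window of Sox10 lies on the minus strand, also in 2 exons, at chr15:79163289-79163419 and chr15:79159298-79159403. Sox4 and Sox11 hold theirs in a single exon on the minus strand, at chr13:28952623-28952859 and chr12:27342040-27342276. The sequences, from the GENCODE M21 coding exons on GRCm38 and written 5′ to 3′ on the coding strand, are shown in capitals where a gene and its subgroup partner hold the same base.
Sox9: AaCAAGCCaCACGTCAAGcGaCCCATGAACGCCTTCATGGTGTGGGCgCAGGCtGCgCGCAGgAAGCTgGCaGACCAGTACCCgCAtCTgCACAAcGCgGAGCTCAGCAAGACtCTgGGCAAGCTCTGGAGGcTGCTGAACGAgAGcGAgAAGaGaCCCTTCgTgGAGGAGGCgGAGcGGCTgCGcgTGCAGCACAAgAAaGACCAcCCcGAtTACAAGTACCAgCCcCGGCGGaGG
Sox10: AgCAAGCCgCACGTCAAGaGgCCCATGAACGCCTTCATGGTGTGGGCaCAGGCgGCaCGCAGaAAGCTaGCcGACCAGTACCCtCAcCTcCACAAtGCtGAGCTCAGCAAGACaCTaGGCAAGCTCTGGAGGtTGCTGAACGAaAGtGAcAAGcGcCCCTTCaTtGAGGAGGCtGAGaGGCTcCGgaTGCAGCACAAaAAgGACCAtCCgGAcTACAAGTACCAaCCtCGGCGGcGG
Sox4: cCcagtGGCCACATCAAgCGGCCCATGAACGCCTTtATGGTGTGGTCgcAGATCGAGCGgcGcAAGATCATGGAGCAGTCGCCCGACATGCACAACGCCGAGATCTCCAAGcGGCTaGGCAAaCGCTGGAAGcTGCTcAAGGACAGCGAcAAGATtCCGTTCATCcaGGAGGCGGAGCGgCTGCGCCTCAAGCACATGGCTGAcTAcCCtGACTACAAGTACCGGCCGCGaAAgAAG
Sox11: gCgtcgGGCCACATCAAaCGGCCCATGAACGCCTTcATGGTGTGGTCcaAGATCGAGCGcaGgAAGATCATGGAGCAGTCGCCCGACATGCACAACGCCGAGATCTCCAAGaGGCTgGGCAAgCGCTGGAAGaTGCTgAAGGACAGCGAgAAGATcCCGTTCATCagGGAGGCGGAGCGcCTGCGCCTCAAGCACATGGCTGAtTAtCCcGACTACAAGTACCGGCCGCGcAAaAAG

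Expression is given as FPKM, mapped fragments scaled to transcript length and library size, which allows levels to be compared between genes. Summed FPKM was between 557991 and 638365 per library, and between 17343 and 18741 entries were above 0. The number of fragments is unknown, and the relative depth read from the smallest values was between 0.92 and 1.3 times that of MEC 1. The targeted genes were lower in every MEKO line. Mapk8 and Mapk9 together were at 41.3 to 47.6 FPKM in MEC and at 13.6, 6.27 and 4.44 FPKM in lines 199, 233 and 336. Mapk8 fell by 2.52 and Mapk9 by 2.17 on the log2 scale (limma, adjusted p = 0.0146 and 0.0122). Of the luminal marker list, 9 of 11 tested genes were called lower in MEKO by the rule given below, beside 7.26% of all tested genes. Its summed level was 4678 to 8489 FPKM in MEC and 449 to 1763 in MEKO. Of the basal list, 3 of 11 tested genes were called lower, with a sum of 1937 to 3667 FPKM in MEC and of 2478, 12.3 and 60.6 FPKM in lines 199, 233 and 336. The 3 called basal genes passed the filter on low values only through MEC, as did Elf5, Kit and Pgr of the luminal list. The counts of called genes in these lists are therefore a description. Over all listed genes, tested or not, every line was under every preparation for 11 of the 12 luminal and 6 of the 11 basal genes, beside 16.7% of entries above 0 in a library. The sum in line 199 rested on abundant genes such as Krt5, Krt14, Krt17 and Acta2, while Myh11, Oxtr and Mylk were at 0.0812, 0.0125 and 0.714 FPKM there, well under MEC as in the other lines. Fibroblast genes summed to 98.8 to 190 FPKM in MEC, 1100 FPKM in line 199 and 2.4 and 4.22 FPKM in lines 233 and 336. The high sum in line 199 came mostly from Col1a1 and Col1a2 (600 and 408 FPKM), and Dcn and Lum were at 6.06% and 2.73% of their MEC mean in that line. In bulk RNA, fewer cells of a type and less RNA per cell cannot be told apart.

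A gene was called changed with an adjusted p under 0.05 over 12461 tested genes and a log2 fold change beyond 0.75 in either direction, MEKO against MEC, on the log2(FPKM + 1) scale. This scale understates the change of genes near or under 1 FPKM. By this rule 905 genes (7.26%) were lower and 329 (2.64%) were higher in MEKO. Sox4, Sox9 and Sox10 were lower, and none of the listed SOX genes was higher. Sox11, Sox13 and Sox15 were tested and not called, and Sox2, Sox5, Sox6 and Sox7 had a mean under 1 FPKM and were not tested, so 6 of the 10 genes passed the filter on low values, Sox10 and Sox15 only through MEC, and the count of called genes is a description. Over all 10 genes, 7 had every MEKO line under every MEC preparation and none had the opposite, beside 16.7% and 13.0% of the 21813 entries above 0 in a library. The exact permutation test for a single gene cannot go below p = 0.1 with 3 against 3 libraries. The limma p-values set the difference between the groups against the spread among these preparations and among these lines.

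**Figure D1:**
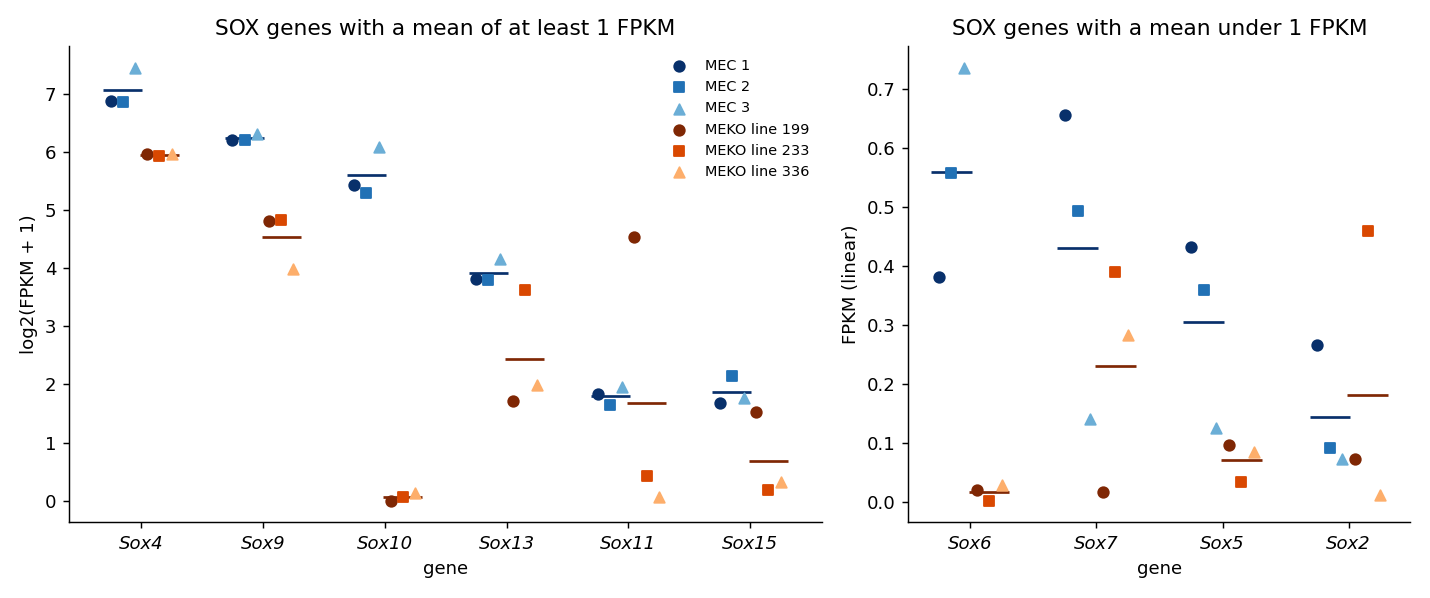
FPKM of the 10 SOX genes in each library, as log2(FPKM + 1) for the 6 genes with a mean of at least 1 FPKM and on a linear FPKM axis for the other 4. Points are libraries, blue for MEC and brown to orange for the MEKO lines, and bars are group means (n = 3). Sox10 is near 0 in all 3 MEKO lines, Sox11 is high in line 199 alone, and Sox13 is near the MEC level in line 233 alone.

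Among the SOXE genes, Sox10 had the largest difference of any SOX gene. SOX10 is a regulator of neural crest derivatives such as Schwann cells and melanocytes, and its gene lies at chr15:79154908-79165240 on the minus strand. It was at 42.3, 38.4 and 67.4 FPKM in MEC 1, 2 and 3, was listed at 0 in line 199, and was at 0.0474 and 0.0941 FPKM in lines 233 and 336. Every MEC preparation was high and every line was near 0, so that the groups lay far apart. The log2 fold change was -5.55 (SE 0.24, 95% interval -6.13 to -4.96), with an adjusted p of 0.000587 by limma. It ranked 13th from the most negative of the 12461 tested genes, and Sox10 was called lower under each of 13 other settings of the analysis. Sox10 passed the filter on low values only through MEC, at a mean of 49.4 FPKM against 0.0472 FPKM in MEKO, so these values are a description. Within MEC, Sox10 ranked between the 86.7th and the 92.9th percentile of entries above 0. The basal list was split in line 199, where Sox10 was listed at 0. Krt5, Krt14, Krt17, Trp63 and Snai2 were between 98.8% and 192% of their MEC mean, Acta2, Tagln and Cnn1 were at 65.2%, 32.3% and 28%, and the smooth muscle myosin Myh11, its kinase Mylk and the oxytocin receptor Oxtr were at 0.251%, 7.12% and 0.105%. Of the keratins, Krt5 was at 608 FPKM and Krt14 at 521 FPKM in line 199, and lines 233 and 336 had little of either, with Krt5 at 1.33 and 15.3 FPKM. Of the luminal markers, Elf5, a factor of luminal progenitors, was at 36.2 ± 7.05 FPKM in MEC and 0.16 ± 0.261 in MEKO (SD, n = 3), and Kit, a receptor of the same cells, was at 13.0 ± 2.72 and 0.0432 ± 0.0748 FPKM. The luminal list was not lost as a whole, although 9 of its 11 tested genes were called lower. Krt8 went from 2599 ± 782 to 405 ± 159 FPKM, and Krt18, not called, from 2958 ± 680 to 654 ± 496 FPKM. Esr1, also not called, was at 2.65 ± 0.387 and 2.68 ± 1.02 FPKM. The part of these cell types in the Sox10 difference was not tested. Markers of Schwann cells and melanocytes were near 0 in both groups, with all 6 genes together at 0.960 to 1.98 FPKM in MEC and 0.722 to 2.17 in MEKO, and Dct was above 0 in MEC 1 only.

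Sox9, the partner of Sox10, fell in every line but stayed expressed. SOX9 drives cartilage formation and testis development, and its gene lies at chr11:112782224-112787760 on the plus strand. Sox9 was at 73.3, 72.9 and 78.5 FPKM in MEC and at 27.2, 27.6 and 14.8 FPKM in lines 199, 233 and 336. The MEC preparations were close together, and every line was well under them, with line 336 lowest. Group means were 74.9 ± 3.11 and 23.2 ± 7.31 FPKM (SD, n = 3), a ratio of 3.23. The log2 fold change was -1.70 (SE 0.26, 95% interval -2.31 to -1.09; limma, adjusted p = 0.0133). Leaving out any 1 of the 3 MEC preparations gave a fold change between -1.72 and -1.67 and an adjusted p of 0.0711, 0.0649 or 0.061, which did not pass. Sox8, the other SOXE gene, was at 0.402, 0.459 and 0.649 FPKM in MEC and at 0.546 FPKM in line 199, and was listed at 0 in lines 233 and 336.

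Among the SOXC genes, Sox4 was the most abundant SOX transcript in every library. SOX4 acts in lymphocyte, heart and neural development and is induced by TGF-β in epithelial cells that take on mesenchymal features. Its gene has a single exon at chr13:28948919-28953713 on the minus strand. Sox4 was at 117, 116 and 175 FPKM in MEC and at 61.4, 60.0 and 61.4 FPKM in lines 199, 233 and 336. The 3 lines were nearly equal and lay under the lowest MEC preparation. The log2 fold change was -1.12 (SE 0.19, 95% interval -1.58 to -0.66; limma, adjusted p = 0.0194). Without MEC 1 or MEC 2 the fold change was -1.22 and the adjusted p was 0.0718 or 0.0648, which did not pass. An antisense transcript, Gm26735, covers 54.56% of the Sox4 exon on the other strand and was listed at 0 in all 6 libraries.

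Sox11 differed among the MEKO lines far more than between the groups. SOX11 acts in neurons and their progenitors and overlaps in function with SOX4, and its gene has 1 exon at chr12:27334264-27342574 on the minus strand. It was at 2.55, 2.13 and 2.87 FPKM in MEC and at 22.2, 0.349 and 0.0445 FPKM in lines 199, 233 and 336. Line 199 was above every MEC preparation, and lines 233 and 336 were under every one. Against the MEC mean, the lines differed by 2.72, -1.38 and -1.75 on the log2(FPKM + 1) scale. The fold change over all libraries was -0.13 (SE 1.15, 95% interval -2.90 to 2.63; limma, adjusted p = 0.955), an interval that allows a large change in either direction. Without line 199, Sox11 was called lower, at -1.56 (adjusted p = 0.0139), and without line 233 or 336 the sign turned, at 0.49 and 0.67, neither past the threshold. Line 199, with high Sox11, also had the highest Snai2 and Col1a1 (16.9 and 600 FPKM, against at most 0.467 and 1.08 FPKM in the other lines). Of the same fibroblast list, Col1a2, Col3a1, Pdgfrb and Pdgfra were also above their MEC mean in line 199, at 163% to 1247% of it. Of the basal list, Krt5, Krt14 and Trp63 were above it too, at 137% to 187%. Other genes of the 2 lists were low in line 199, with Myh11 at 0.0812, Oxtr at 0.0125, Mylk at 0.714, Dcn at 0.311 and Lum at 0.0264 FPKM. Whether any of these go together with Sox11 was not tested.

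Sox12, the remaining SOXC gene, moved the other way. It was at 2.72, 1.87 and 3.18 FPKM in MEC and at 8.67, 5.43 and 13.3 FPKM in lines 199, 233 and 336, so that every line was above every preparation. Its fold change was 1.44 (SE 0.33, 95% interval 0.65 to 2.23; limma, adjusted p = 0.0431), which made it the only SOX gene called higher. The adjusted p was between 0.0271 and 0.152 over 13 other settings and passed in 6 of them. It did not pass without MEC 1, MEC 2 or MEC 3 (0.144, 0.152 and 0.11) or without line 199 or 336 (0.0603 and 0.0735).

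**Figure D2:**
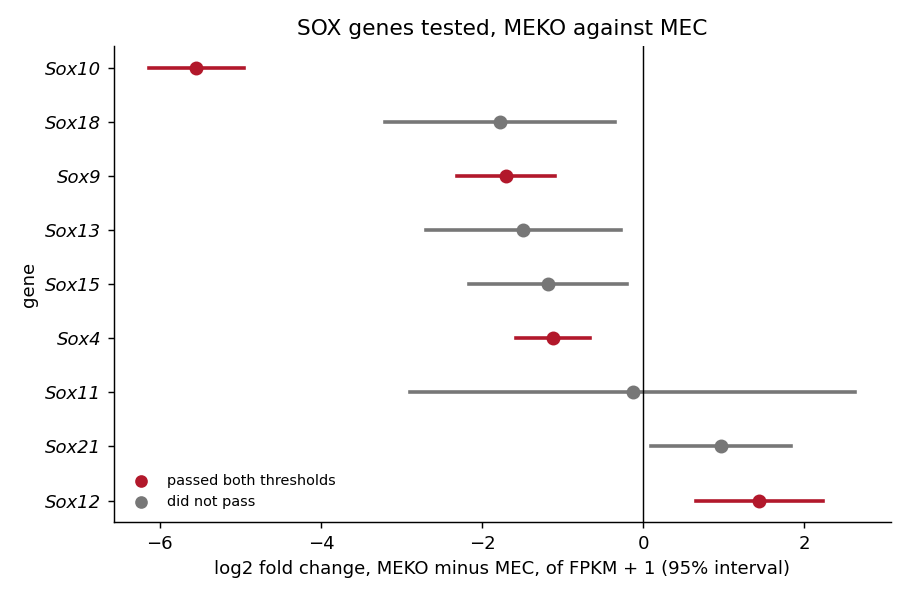
Log2 fold change of FPKM + 1, MEKO minus MEC, for the 9 SOX genes with a mean of at least 1 FPKM. Points are limma estimates and bars are 95% intervals, red where both thresholds were passed. Sox10 at -5.55 is far from the others, Sox12 at 1.44 is the only red point right of 0, and the interval of Sox11 spans 0 widely.

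The SOXD proteins lack a transactivation domain and act with partners, SOX5 and SOX6 with SOX9 in cartilage and SOX13 in γδ T cells. Sox13, at chr1:133382303-133424377 on the minus strand, was the only SOXD gene with a mean over 1 FPKM. It was at 13.1, 13.0 and 16.9 FPKM in MEC and at 2.29, 11.3 and 2.98 FPKM in lines 199, 233 and 336. All lines were under the preparations, but line 233 kept 78.9% of the MEC mean while lines 199 and 336 kept 15.9% and 20.7%. The fold change of -1.49 (SE 0.50, 95% interval -2.69 to -0.28) did not pass (limma, adjusted p = 0.115). Without line 233 it was -2.08 with an adjusted p of 0.00939, which passed.

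Sox6 and Sox5 were low in both groups. Sox6, at chr7:115470872-116038796, was at 0.382, 0.559 and 0.737 FPKM in MEC and at 0.0202, 0.00273 and 0.0284 FPKM in the lines. The ranges lay far apart, and the exact permutation p was 0.1, the smallest possible. With every entry above 0 included, limma gave Sox6 an adjusted p of 0.0206, and its difference of -0.61 on the log2(FPKM + 1) scale stayed under the fold threshold. Sox5, at chr6:143828425-144781977, was at 0.433, 0.36 and 0.126 FPKM in MEC and at 0.0967, 0.0347 and 0.0858 FPKM in the lines. MEC 3 was close to line 199 although the groups did not overlap, and an antisense gene, Sox5os1, covers 9.25% of the Sox5 exons.

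Sox15 and Sox2 were both low. SOX15 acts in trophoblast and in muscle regeneration, and its gene lies at chr11:69655314-69656727. Sox15 was at 2.2, 3.42 and 2.42 FPKM in MEC and at 1.89, 0.140 and 0.255 FPKM in lines 199, 233 and 336. Line 199 lay just under the lowest MEC preparation, and the other lines were well under. The fold change of -1.18 (SE 0.41, 95% interval -2.16 to -0.20) was not called (limma, adjusted p = 0.122). Without line 199 it was -1.61 with an adjusted p of 0.0133. Sox15 passed the filter on low values only through MEC, at a mean of 2.68 FPKM against 0.763 FPKM in MEKO, so these values are a description. The Sox15 exons share 31 bases with Mpdu1 on the other strand, which was between 18.6 and 68.1 FPKM over the libraries.

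Sox2, the pluripotency factor, lies at chr3:34650405-34652461 within the long noncoding gene Sox2ot. It was at 0.267, 0.0913 and 0.0726 FPKM in MEC and at 0.0728, 0.460 and 0.0117 FPKM in the lines. The groups overlapped, and the exact permutation p was 0.9. Line 233 had the highest value, and even there Sox2 ranked at the 28.1st percentile of entries above 0. The other SOXB genes were also low: Sox1 was listed at 0 in all libraries, Sox3 was at 0.0531 FPKM or less, and Sox14 was at 0.0892 to 0.466 FPKM in MEC and listed at 0 in MEKO. Sox30, which stands outside these subgroups, was at 0.0457 FPKM or less, and Sry was listed at 0 in all libraries. Sox21, a SOXB repressor, was at 0.417, 0.291 and 0.446 FPKM in MEC and at 0.737, 3.16 and 1.70 FPKM in lines 199, 233 and 336. All lines were above all preparations, and the fold change of 0.96 (SE 0.36) was not called (limma, adjusted p = 0.147). Without line 199 the fold change was 1.28 with an adjusted p of 0.0359. Sox21 passed the filter on low values only through MEKO, at a mean of 1.87 FPKM against 0.385 FPKM in MEC, so these values are a description. A noncoding gene on the other strand, Gm4675, covers 18.77% of the Sox21 exon and was at 0.0768 to 1.16 FPKM.

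The SOXF genes act in the endothelium of blood and lymph vessels. Among the preparations they were lowest in MEC 3, which had the lowest sums of the endothelial and most other marker lists. Sox7, at chr14:63943673-63950732, was at 0.656, 0.494 and 0.141 FPKM in MEC and at 0.0180, 0.390 and 0.284 FPKM in lines 199, 233 and 336, and the groups overlapped (exact permutation p = 0.4). Sox18 was at 4.92, 4.26 and 0.315 FPKM in MEC, at 0.0178 FPKM in line 199, and listed at 0 in lines 233 and 336. Sox17 was at 0.82, 0.75 and 0.0927 FPKM in MEC and listed at 0 in all lines. Each of the 3 genes was lowest in MEC 3 among the preparations. The endothelial markers were lowest there too, with Pecam1 at 4.88, 6.30 and 0.784 FPKM and Cdh5 at 5.38, 4.90 and 0.586 FPKM in MEC 1, 2 and 3, and at 0.249 and 0.177 FPKM or less in the lines. Emcn differed from these in line 336, where it was at 1.58 FPKM, above MEC 3 at 0.453 FPKM. All 6 markers together were at 18.1, 21.0 and 2.24 FPKM in MEC 1, 2 and 3 and at 0.2, 0.164 and 2.1 FPKM in lines 199, 233 and 336, so that line 336 was close to MEC 3. Being lowest in MEC 3 was not particular to endothelial genes. The luminal, basal, fibroblast and adipocyte sums were lowest there too among the preparations, at 4678, 1937, 98.8 and 1.48 FPKM, as was that of Schwann cells and melanocytes. The leukocyte sum was highest there, at 34.8 FPKM. Sox18 was not called, at -1.78 (SE 0.59; limma, adjusted p = 0.113), and was called without MEC 3, at -2.47 (adjusted p = 0.0135). Sox18 passed the filter on low values only through MEC, at a mean of 3.16 FPKM against 0.00594 FPKM in MEKO, so these values are a description. The part of endothelial cells in the SOXF values was not tested.

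**Figure D3:**
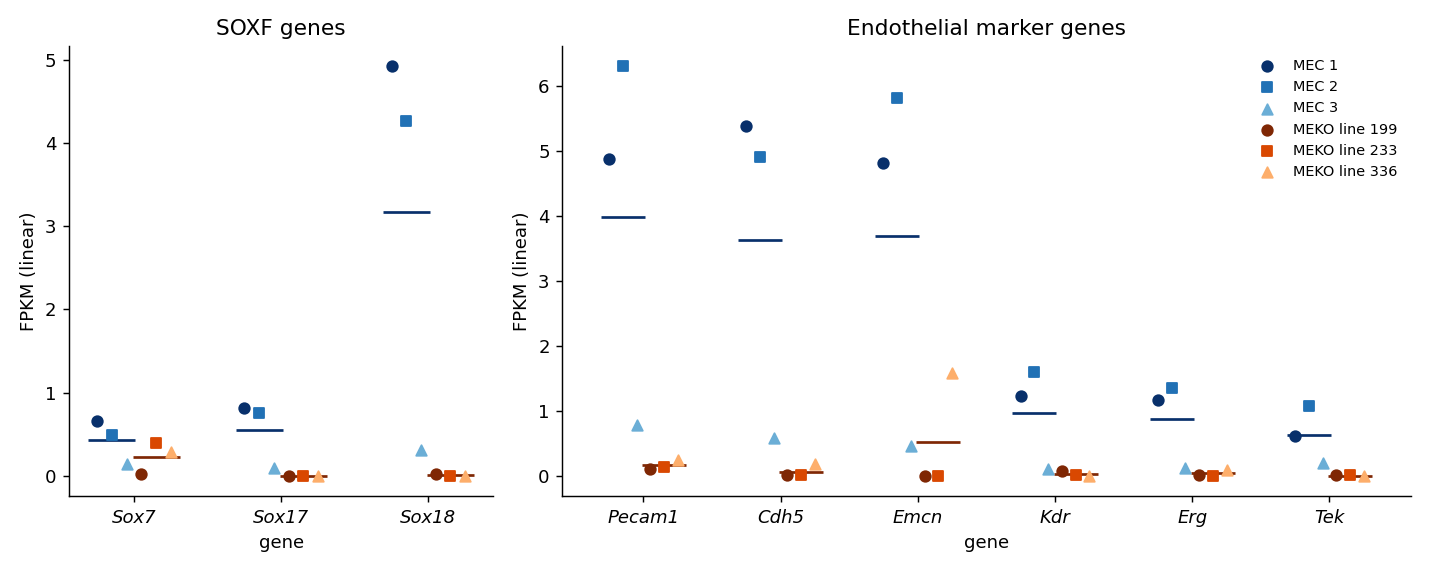
FPKM on linear axes of the 3 SOXF genes and of 6 endothelial marker genes in each library. Points are libraries, blue for MEC and brown to orange for MEKO, and bars are group means (n = 3). MEC 3 is the lowest preparation for all 9 genes, and Sox18 at 4.92 and 4.26 FPKM in MEC 1 and MEC 2 is the most abundant SOXF gene.

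The make-up of the whole family shifted with these changes. Over 20 SOX genes the summed level was 261, 256 and 350 FPKM in MEC and 125, 109 and 94.9 FPKM in lines 199, 233 and 336, with no overlap. The mean was 289 ± 52.7 in MEC and 110 ± 15.1 in MEKO (SD, n = 3), a ratio of 2.63. Sox4 was the leading SOX transcript in both groups, at 44.6% to 50.2% of the sum in MEC and 49.1% to 64.7% in MEKO. Sox10 went from 15.0% to 19.3% in MEC to at most 0.0991% in MEKO. Sox12 went from 0.733% to 1.04% in MEC to 4.98% to 14% in MEKO, and Sox11 held 17.7% in line 199 alone. After Sox4 and Sox9, the next SOX transcript differed by line and was Sox11 in line 199, Sox13 in line 233 (10.4%) and Sox12 in line 336 (14%).

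**Figure D4:**
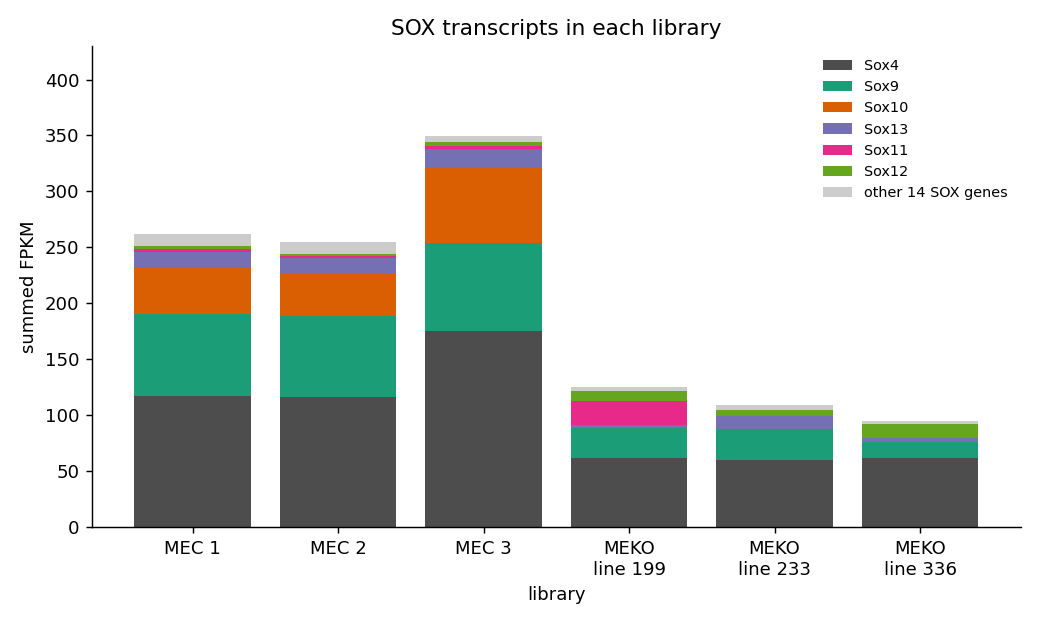
Summed FPKM of 20 SOX genes in each library, stacked by gene. Bars are single libraries from 0, and the grey part holds the 14 genes not named. The MEC bars reach 256 to 350 FPKM and the MEKO bars 94.9 to 125 FPKM, and the Sox10 part is visible only in MEC.

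In MEC the levels ran in the order Sox4, Sox9, Sox10, Sox13, Sox15, Sox11, Sox6, Sox7, Sox5 and Sox2. The first 4 genes did not overlap with their neighbours in this order, whereas Sox15 and Sox11 overlapped, as did each neighbouring pair from Sox6 to Sox2. In MEKO only Sox4 kept clear of its neighbour in the upper part, since Sox9, Sox11 and Sox13 overlapped in turn. Sox13 lay apart from Sox15, and each gene from Sox15 downwards overlapped with the next. The number of these 10 genes at 1 FPKM or above was 6 in each preparation, 5 in line 199 and 3 in lines 233 and 336.

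Genes that SOX factors are known to act on were described by list, beside the 9.90% of tested genes called in either direction. Of 14 cartilage genes that SOX9 controls with SOX5 and SOX6, 4 were tested and 3 were lower in MEKO. Col9a3, a collagen IX chain, was at 6.39, 4.56 and 10.0 FPKM in MEC and at 0.608, 0.245 and 0.523 FPKM in MEKO, a log2 fold change of -2.40 (limma, adjusted p = 0.00748). Col11a1, a collagen XI chain, was at 4.68, 2.35 and 5.31 FPKM in MEC and at 0.261, 0.00280 and 0.534 FPKM in MEKO, at -1.98 (limma, adjusted p = 0.0177). Snorc, a cartilage proteoglycan, was at 2.02, 1.70 and 5.72 FPKM in MEC and listed at 0 in all lines (limma, adjusted p = 0.0314). For all 3 genes every line was under every preparation. Without MEC 1 none of the list was called, and without MEC 3 only Col9a3 was. The genes best known as cartilage products were low throughout, with Col2a1 at 0.605 FPKM or less and Acan at 1.53 FPKM in line 233 and at 0.0388 FPKM or less elsewhere, and Wwp2, which hosts a microRNA of cartilage, was not called. The 3 called genes passed the filter on low values only through MEC, where they were high, and the other 10 genes of the list were not tested, so this count is no support for a direction of the list.

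Of 15 neural crest and glial genes that SOX10 acts on, 8 were tested and none was called by limma, with 1 at an unadjusted p under 0.05. That gene was Mia, a small secreted protein first found in melanoma, in a table entry joined with other genes, at 17.1, 14.1 and 41.1 FPKM in MEC and 4.87, 5.41 and 8.77 FPKM in MEKO (-1.65; limma, adjusted p = 0.0584). Erbb3, a neuregulin receptor, was at 16.4, 14.7 and 21.1 FPKM in MEC and 5.35, 16.0 and 13.4 FPKM in MEKO, with overlap. Ednrb, the endothelin receptor of neural crest cells, was at 1.69, 2.15 and 0.0467 FPKM in MEC and listed at 0 in MEKO. Ngfr, of the same list, went the other way by mean and was not called (2.35; limma, adjusted p = 0.19). It was at 9.78, 1.15 and 39.3 FPKM in lines 199, 233 and 336 and at most at 1.75 FPKM in MEC. The median over the 8 genes was -0.01.

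Of 10 pluripotency factors that act with SOX2, 2 were tested and Klf4 was higher in MEKO. Klf4, which also acts in epithelial differentiation, was at 10.0, 12.3 and 7.83 FPKM in MEC and at 30.5, 29.5 and 16.1 FPKM in MEKO, with every line above every preparation. Its fold change was 1.22 (limma, adjusted p = 0.0487), and it passed in 3 of 13 other settings. Without each of MEC 1, MEC 2, MEC 3, line 199 and line 233 none of the list was called. Lin28b, of the same list, had a mean under 1 FPKM and was not tested, and every line was above every preparation. With every entry above 0 included, Lin28b was called higher (0.86; limma, adjusted p = 0.0216) and Klf4 was not (adjusted p = 0.0758). Pou5f1, Sall4 and Zfp42 were listed at 0 in all libraries, and Nanog was at 0.322 FPKM or less. Of 4 genes in the table that SOX4 or SOX11 act on, 3 were tested and none was called by limma or had an unadjusted p under 0.05. Tead2, a partner of YAP, was at 63.4 ± 4.42 FPKM in MEC and 37.8 ± 16.9 in MEKO (SD, n = 3; limma, adjusted p = 0.197).

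Other genes had profiles close to those of the most abundant SOX genes. The highest Pearson r with Sox4 over the 6 libraries were those of Wfdc17 (0.9977), Creb3l4 (0.9976) and Ppp1r9b (0.9974). For Sox9 they were those of Il13ra1 (0.9985), Fam46a (0.9971) and Cd97 (0.9968). Such values were common, with 378 genes above 0.95 for Sox4 and 294 for Sox9, and the points share the difference between the groups.

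Promoter windows from RefSeq, from 250 bases before to 50 bases after each start on GRCm38.p6, were searched on both strands for the AP1 letters TGANTCA and the SOX letters AACAAT. JNK is known for phosphorylating c-JUN, an AP1 subunit. The AP1 letters were in 7.8% of all 32851 windows and in none of those of Sox2, Sox4, Sox5, Sox6, Sox11, Sox13 and Sox15. The SOX letters were in 10.7% of all windows and, among these genes, in 1 window of Sox6. These genes had few windows, several of them of Sox6, so both results are a description and the absence of AP1 letters is uninformative. Sox7, Sox9 and Sox10 had no window to search.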

How the data were processed

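RNA-seq of 3 MEC preparations and 3 MEKO tumor cell lines was analysed, 1 library each, with groups taken from the sample titles and genotypes. The authors trimmed reads, aligned them to GRCm38 with Bowtie2 and TopHat2 2.0.14, and deposited the FPKM values that Cufflinks 2.2.1 gave for each gene and library. Length and library size are thus normalized, read numbers are unknown, and no interval for counting error was computed. Strandedness of the library kit is not given in the sources used here, so overlapping antisense genes cannot be told apart from their partners. The labels give no batch.

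The table holds 37755 entries, of which 2 have no value and 466 join several genes, and where a symbol had several entries, that of the highest mean stood for it. Entries with a mean of at least 1 FPKM were tested with limma 3.58.1 in R 4.3.3, MEKO against MEC, on log2(FPKM + 1) with a trended prior variance, and Benjamini-Hochberg correction was made across all 12461 genes tested. Thresholds were an adjusted p under 0.05 and a log2 fold change beyond 0.75, as in the study's methods. Exact permutation tests were two-sided. The code was tested on simulated data. Alternatives were a pseudocount of 0.1, no filter or a filter at 5 FPKM, quantile or upper-quartile normalization, no trend, sample weights, and leaving out each library. SOX genes were all named. Other genes were named as the largest called changes or best known members of each list, as the 3 most like Sox4 and Sox9, or as overlapping a SOX gene. The members, lists and tests were chosen with earlier results of these data known. Symbols were paired with GENCODE M21 for positions.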

Additional observations from a re-analysis of the deposited data

How the results depend on the processing

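Depth is unknown, so values under 1 FPKM carry the least certainty, and 3 libraries a group allow no exact p under 0.1. Leaving out 1 library left 1 to 5 of the 10 SOX genes called, 1 without MEC 1 or MEC 2 (Sox10) and 5 without line 199, and other settings left 3 or 4. Over all genes the count of 1234 became 738 with a filter at 5 FPKM, 1978 with sample weights, and 259 to 1966 without 1 library. Sox10 kept its call throughout (-5.70 to -5.30 without 1 library). The ranges without 1 library were -1.85 to -1.42 for Sox9, -1.22 to -0.92 for Sox4, -2.08 to -1.12 for Sox13, -1.61 to -0.93 for Sox15, -1.56 to 0.67 for Sox11, -2.90 to -2.13 for Mapk8 and -2.52 to -1.98 for Mapk9, where the last 2 missed the threshold without any MEC preparation (adjusted p up to 0.0728 and 0.0707, limma). Sox11 changed sign with quantile normalization (0.28), which moved the median of all genes from 0.01 to 0.10, and without line 233 or 336 (0.49 and 0.67). Sample weights brought Sox15 past the threshold (-1.27). A pseudocount of 0.1 gave differences of -8.40 for Sox10, -2.30 for Sox15, -4.30 for Sox18, -1.16 for Sox5, -2.46 for Sox6 and -0.76 for Sox7. Called genes among the other SOX genes numbered 1, and became 0 with no filter or a filter at 5 FPKM, 3 with sample weights, and 0 to 1 without 1 library. For the pluripotency list 1 became 0 with a pseudocount of 0.1, a filter at 5 FPKM, upper-quartile scaling or no trend, and 0 to 1 without 1 library. With no filter the 1 called gene of this list was Lin28b in place of Klf4. For the glial list 0 became 1 with sample weights, and 0 to 1 without 1 library. For the cartilage list 3 became 0 with a filter at 5 FPKM, which left fewer genes to test, and 0 to 3 without 1 library. Apart from that filter, the cause of these changes was not tested. No paired analysis was possible, because the preparations were pools of virgin females and the lines came from tumors of parous animals.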

Other observations

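Values of some genes from the other lists are given here by line or by group. Ngfr, the low-affinity neurotrophin receptor and a gene of the glial list, was at 0.879, 1.75 and 0.356 FPKM in MEC and at 9.78, 1.15 and 39.3 FPKM in lines 199, 233 and 336, so that 2 lines were above every preparation and line 233 lay among them. Lin28b, an RNA-binding protein of stem cells and a gene of the pluripotency list, was at 0.0312, 0.0292 and 0 FPKM in MEC and at 1.10, 0.953 and 0.530 FPKM in the lines, with no overlap. Esr1, the estrogen receptor, was at 2.65 ± 0.387 FPKM in MEC and 2.68 ± 1.02 in MEKO (SD, n = 3), whereas Pgr, the progesterone receptor, was at 9.13 ± 1.45 FPKM in MEC and listed at 0 in all lines. Ngfr and Lin28b were chosen after their values were seen.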
